A study of Danio rerio with 2 samples.

Results

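The genes described are gtf2a1 and tbp, which encode core promoter factors of RNA polymerase II. They were chosen by gene symbol, each occurs on 1 line of the deposited tables, and together they are 2 of the 4591 listed genes. Whole zebrafish embryos of the Tuebingen strain had received either a phf14 morpholino or a standard morpholino, 5 ng each, at the 1-cell stage, and were collected at 4.7 h after fertilization. A morpholino (MO) is a synthetic oligomer that pairs with a chosen RNA and keeps it from being translated or spliced, and the standard MO serves as the control injection. The data hold 1 RNA sequencing library of phf14 MO embryos and 1 of standard MO embryos, so no value has a replicate error and no p-value can be given. The series asks how PHF14, a chromatin protein that reads histone H3, bears on the activation of the zygotic genome.

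TBP, the TATA-binding protein, is the subunit that brings the general transcription machinery to a core promoter. It is shared by the initiation complexes of RNA polymerases I, II and III. TFIIA binds TBP on DNA and stabilises it there, and it competes with repressors that act on TBP. gtf2a1 encodes the large TFIIA precursor, which the protease Taspase1 cuts into the alpha and beta subunits, and gtf2a2 encodes the gamma subunit. In the zebrafish blastula the embryo passes from RNA stored by the oocyte to RNA made by its own genome. Work in zebrafish embryos has shown that part of the first zygotic transcription needs TBP, and that the related factor encoded by tbpl2 is supplied by the oocyte.

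Both genes were lower in phf14 MO embryos, and the difference was far greater for gtf2a1 than for tbp. gtf2a1 (ENSDARG00000011000) had a deposited expression value of 110.21 in the phf14 MO library, against 269.67 in the standard MO library. The value in phf14 MO embryos was thus 0.409 of that in standard MO embryos, or 59.1% lower. tbp (ENSDARG00000014994) had a value of 58.02 in the phf14 MO library, against 74.43 in the standard MO library. That is a ratio of 0.780, or 22.0% lower. The deposited value is an expression signal whose scale and normalisation are not stated, and sequencing depth is unknown. It was used here as a normalised signal, which is an assumption. Since it is not stated whether values are corrected for transcript length, the values of gtf2a1 and tbp were not compared with each other as levels. gtf2a1 and tbp were picked out with these values in view, so the differences are a description of the 2 libraries and not a test of the morpholino.

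**Figure D1:**
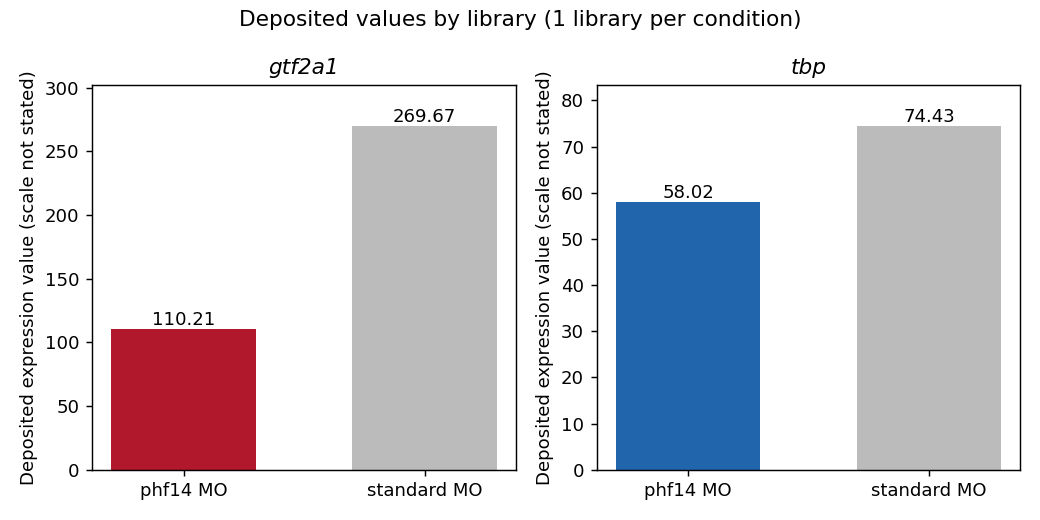
Deposited expression values of gtf2a1 (left) and tbp (right) in the phf14 MO and standard MO libraries, 1 library per condition and therefore without error bars. The bar of gtf2a1 stands at 110.21 for phf14 MO and 269.67 for standard MO, and that of tbp at 58.02 and 74.43 in the same order.

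On the log2 scale with a pseudocount of 1, the ratio of the phf14 MO over the standard MO library was -1.28 for gtf2a1 and -0.35 for tbp. Over the 3524 genes whose mean value reached 1, the median log2 ratio was 0.11. Relative to that median gene, gtf2a1 stood at -1.39 and tbp at -0.46. Of these 3524 genes, 0.482% were lower by more than 2-fold in the phf14 MO library and 0.341% were higher by more than 2-fold. gtf2a1 was one of the 17 lower genes, and tbp was not among them. The 17 lower and 12 higher genes became 24 and 8 after centring on the median gene. Lower values of any size were common, at 37.2% of the same genes. Ordered from the lowest log2 ratio, gtf2a1 was in place 5 and tbp in place 329, so that 9.31% of genes had a lower log2 ratio than tbp.

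The 4 genes with a lower log2 ratio than gtf2a1 were all listed with small values. Their means over both libraries were between 1.65 and 4.76, against 189.9 for gtf2a1. Among 195 genes whose mean value reached 50, gtf2a1 had the lowest log2 ratio and tbp was in place 28. Of these 195 genes, 2 were lower by more than 2-fold, gtf2a1 and the ribosomal protein gene rpl26, and 0 were higher by more than 2-fold. Within the phf14 MO library gtf2a1 had the 85th highest value of all listed genes, against the 36th highest in the standard MO library. tbp had the 171st highest value in the phf14 MO library and the 148th highest in the standard MO library. These places do not depend on any factor that multiplies a whole library.

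gtf2a1 was a small part of the values summed over the 4591 listed genes in both libraries. Such a sum need not be the total of a library. It held 0.155% of the summed values in the phf14 MO library, against 0.356% in the standard MO library. tbp held 0.0816% in the phf14 MO library and 0.0984% in the standard MO library. The sum over all listed genes was 71136 in the phf14 MO library and 75675 in the standard MO library. Of that difference in sums, in which higher and lower genes partly cancel, gtf2a1 by itself equalled 3.51% and tbp 0.362%. By the difference in deposited value, 7 genes were lower by more than gtf2a1.

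The log2 ratio depended on level in these tables, genes with high values being mostly lower in the phf14 MO library. Each gene was therefore set against the 50 genes nearest to it in mean log2 value. Around gtf2a1 these 50 genes had values between 97.72 and 213.7 in the phf14 MO library and between 121.0 and 277.5 in the standard MO library. Of them, 43 were lower in the phf14 MO library, and their median log2 ratio was -0.17 with an SD of 0.24 across genes. That SD is a spread across genes, in which real differences and errors of measurement are mixed, and it is no replicate error. None of the 50 had a log2 ratio below that of gtf2a1, which stood at -1.11 relative to their median and 0.22 under the lowest of them.

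**Figure D2:**
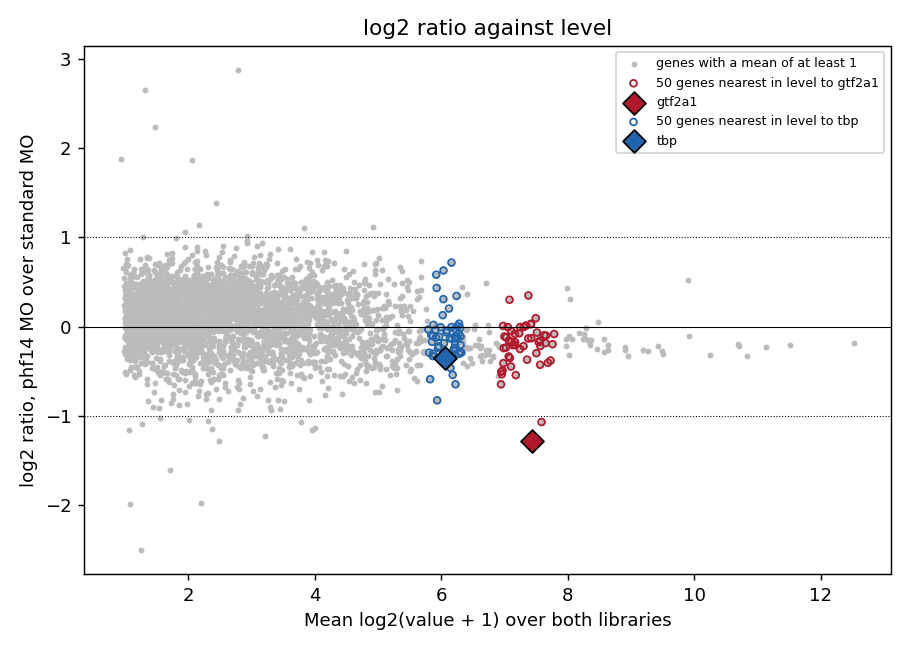
log2 ratio of the phf14 MO over the standard MO library (y axis) against the mean log2(value + 1) of both libraries (x axis) for 3524 genes whose mean value reached 1, as grey points, with dotted lines at 2-fold. gtf2a1 (red diamond, -1.28) lies below its 50 level neighbours (red circles), and tbp (blue diamond, -0.35) lies among its own (blue circles).

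The genes of that level with the log2 ratios nearest to gtf2a1 were rpl26, rpl39 and anxa1a. The ribosomal protein gene rpl26 had a value of 131.85 in the phf14 MO library and 277.49 in the standard MO library, a log2 ratio of -1.07. rpl39, also a ribosomal protein gene, was at -0.65, and anxa1a, an annexin gene of the enveloping layer, at -0.54. rpl26 was thus the single gene close to gtf2a1 both in level and in log2 ratio. Of the 4 genes next to gtf2a1 in level, 2 had slightly higher values in the phf14 MO library, both falling below 0 after centring on the median gene, and 2 had lower ones. The ribosomal protein gene rpl21 had 172.57 in the phf14 MO library and 168.65 in the standard MO library, a log2 ratio of 0.03. hmgn2, which encodes a nucleosome-binding protein, had 163.51 in the phf14 MO library and 178.89 in the standard MO library (-0.13). The profilin gene pfn2 had a log2 ratio of 0.10 and si:ch211-15b10.6 one of -0.30.

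tbp lay inside the range of its level neighbours. These 50 genes had values between 45.08 and 90.99 in the phf14 MO library and between 48.62 and 92.72 in the standard MO library. Their median log2 ratio was -0.12 with an SD of 0.30 across genes, and 39 of them were lower in the phf14 MO library. tbp stood at -0.24 relative to that median, which is less than 1 SD. The neighbours with a lower log2 ratio than tbp numbered 5. They were crhr2, a corticotropin-releasing hormone receptor gene (-0.82), znf185, a LIM domain gene (-0.64), hnf4a, a nuclear receptor gene of the yolk syncytial layer (-0.59), si:ch211-191i18.4 (-0.54) and gata6, an endodermal transcription factor gene (-0.46). The nearest in log2 ratio were si:dkey-56m19.5 (-0.34), LOC100334495 (-0.33) and lcp1, an actin-bundling gene of leukocytes (-0.30). Next to tbp in level, the ribosome biogenesis genes nifk and nsa2 had log2 ratios of -0.19 and -0.04, the retinol dehydrogenase gene rdh10b -0.06 and the claudin gene cldnd 0.63.

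**Figure D3:**
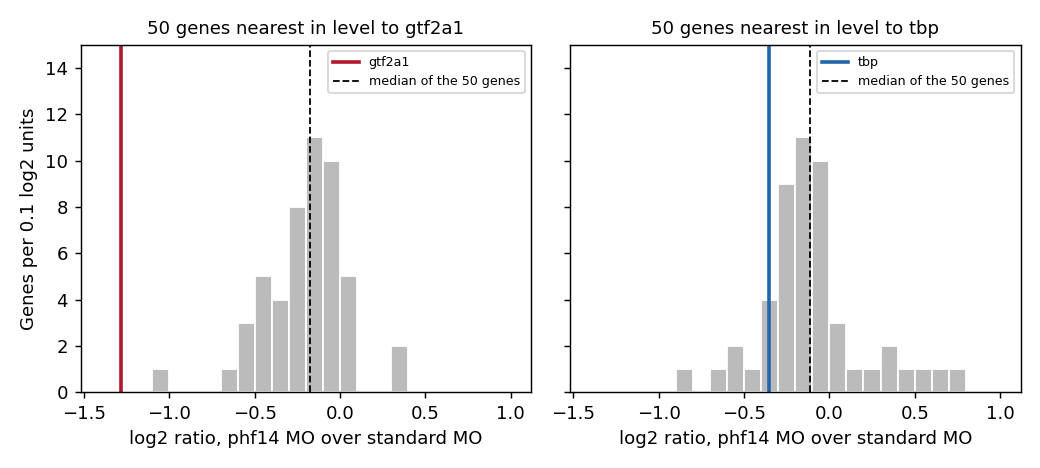
Numbers of genes per 0.1 log2 units of the phf14 over the standard morpholino log2 ratio, for the 50 genes nearest in level to gtf2a1 (left) and to tbp (right). Coloured lines mark gtf2a1 at -1.28, below all 50 genes, and tbp at -0.35, above 5 of its 50, and dashed lines mark the medians of -0.17 and -0.12.

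The relation between gtf2a1 and tbp was taken within each library, where any scaling factor of that library cancels. The ratio of the gtf2a1 value to the tbp value was 1.90 in the phf14 MO library, against 3.62 in the standard MO library. The difference between the log2 ratios of gtf2a1 and tbp was -0.93. The values of gtf2a1 and tbp were thus not in the same proportion in these libraries. That follows from values already given and adds no further support.

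Taspase1, the protease that cuts the TFIIA precursor, is encoded by tasp1 (ENSDARG00000060580), which had a value of 6.78 in the phf14 MO library and 5.24 in the standard MO library (log2 ratio 0.32). btaf1 (ENSDARG00000060089), which encodes an ATPase that removes TBP from DNA, had 9.95 in the phf14 MO library and 7.63 in the standard MO library (0.34). The paralog tbpl2 (ENSDARG00000097302), a TBP relative of the oocyte, was near the low end of the values with 1.30 in the phf14 MO library and 1.01 in the standard MO library (0.19). These 3 genes were higher in phf14 MO embryos, as were 62.3% of all genes tested, and so in the direction opposite to gtf2a1 and tbp. The medians of their own level neighbours were 0.18 for tasp1, 0.18 for btaf1 and 0.11 for tbpl2, less than 1 SD from each gene. With values this low, a small step in the deposited value makes up much of the ratio, and the log2 ratio of tbpl2 ran from 0.07 to 0.33 over the pseudocounts and scalings tried. The gtf2a1 value was 16.3 times that of tasp1 in the phf14 MO library, against 51.5 times in the standard MO library. The tbp value was 5.83 times that of btaf1 in the phf14 MO library, against 9.75 times in the standard MO library. Both comparisons set genes of unlike level against each other. The level neighbours of gtf2a1 and tbp had medians of -0.17 and -0.12, so these quotients also hold the dependence of the log2 ratio on level. gtf2a2, gtf2a1l, tbpl1, dr1 and drap1 were not analysed here.

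Of the other general factors, gtf2h1, which encodes a TFIIH subunit, was measured. Its value was 8.45 in the phf14 MO library and 6.52 in the standard MO library, a log2 ratio of 0.33. The TBP-associated factor gene taf4b, a TFIID subunit gene, had 3.71 in the phf14 MO library and 2.93 in the standard MO library (0.26). taf6l, whose product is a subunit of the SAGA coactivator, had 8.75 in the phf14 MO library and 7.14 in the standard MO library (0.26). tada2b, an adaptor subunit gene of SAGA, had the same value of 5.18 in both libraries. No gene of Mediator, the coactivator that bridges activators and the polymerase, was analysed here.

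TBP also serves RNA polymerases I and III, and 5 genes of those factors were measured. snapc2, a subunit gene of the complex that starts small nuclear RNA genes, had 2.98 in the phf14 MO library and 1.70 in the standard MO library (log2 ratio 0.56). With values this low that ratio ran from 0.25 to 0.77 over the pseudocounts and scalings tried. snapc1a of the same complex had 2.21 in the phf14 MO library and 2.22 in the standard MO library (-0.0045). gtf3ab, which encodes the 5S RNA gene factor TFIIIA, had the highest deposited values of the remaining machinery genes. They were 45.64 in the phf14 MO library and 40.07 in the standard MO library (0.18). gtf3c2 of TFIIIC was at 0.22 and taf1b, of the RNA polymerase I selectivity factor, at 0.17. The median of the 5 log2 ratios was 0.18.

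RNA polymerase II subunit genes had log2 ratios near that of the median gene, at 0.11 for polr2k and 0.16 for polr2m. The elongation factor genes tcea2 and ell were higher, at 0.43 and 0.36. tcea2 had 3.42 in the phf14 MO library and 2.27 in the standard MO library, and its log2 ratio ran from 0.21 to 0.57 over the pseudocounts and scalings tried. ell had 17.57 in the phf14 MO library and 13.46 in the standard MO library.

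Over all lists, 18 genes of the transcription machinery were measured, gtf2a1 and tbp included. The lists named many more genes, so the 18 are a part of the machinery and no survey of it. Without gtf2a1 and tbp, 14 of the 16 remaining genes were higher in phf14 MO embryos, 1 was lower and 1 was equal. The median log2 ratio of the 16 was 0.24. Over all 3524 genes 62.3% were higher and the median was 0.11. The 14 genes were also above the median gene, as are 50% of all genes by construction. polr2k was barely so (0.00049 after centring on the median gene). gtf2a1 and tbp were thus the lowest of the 18, and gtf2a1 was the only one past 2-fold. The 16 genes had lower values than gtf2a1 and tbp, up to 45.64 in the phf14 MO library and 40.07 in the standard MO library, a range in which the median log2 ratio of genes of similar level was mostly above 0. Set against their own 50 level neighbours, 11 of the 16 were above the neighbours' median and 5 below it, and 14 were within 1 SD of it.

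**Figure D4:**
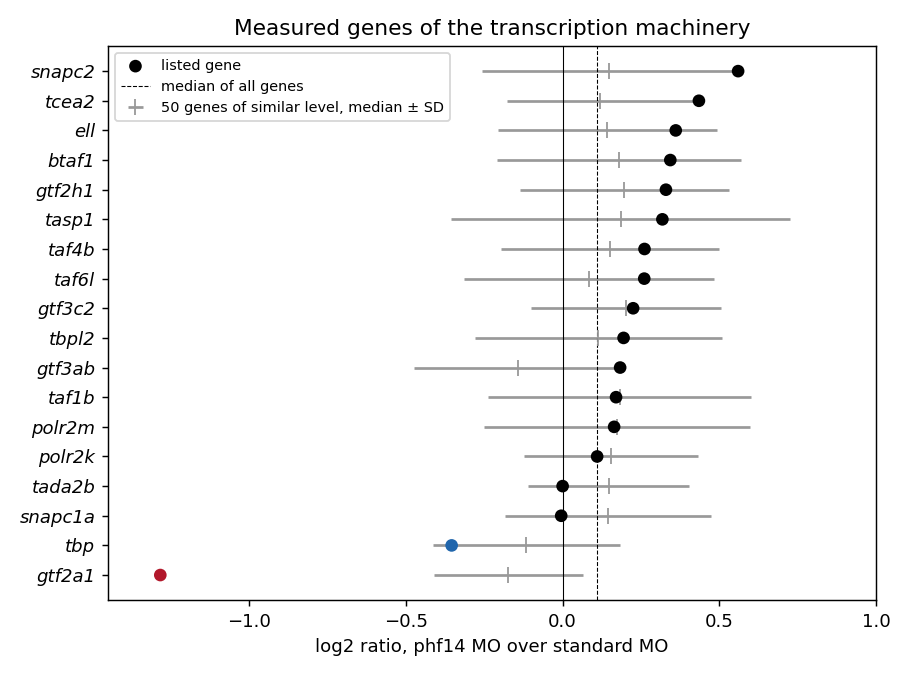
log2 ratio of the phf14 MO over the standard MO library (x axis) for the 18 measured genes of the transcription machinery (rows), with the median ± SD of the 50 genes nearest in level in grey, the SD being across genes. gtf2a1 (red) at -1.28 lies outside that span, tbp (blue) at -0.35 within it, and 14 of the other 16 genes lie to the right of 0.

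tbp is widely used as a reference gene in quantitative PCR, and 4 further reference genes were measured. All 4 were lower in phf14 MO embryos, with a median log2 ratio of -0.13. Of all genes tested 37.2% were lower. eef1a1l1, a translation elongation factor gene, was at -0.19, the tubulin gene tuba1a at -0.24, the ribosomal protein gene rpl13a at -0.07 and the cyclophilin gene ppiab at -0.02. The log2 ratio of tbp, at -0.35, was below those of all 4, which differ in level. Set against their own level neighbours, rpl13a and ppiab had 38 and 28 of 50 genes below them. For eef1a1l1 the count was 27 of its 50 nearest genes. However, gtf2a1, at 269.67 against 6276.89 for eef1a1l1, already had the 36th highest value in the standard MO library. Part of those 50 genes thus had far lower values than eef1a1l1, and its count is no comparison at similar level. tuba1a had 4 of 50 below it, against 5 of 50 below tbp, and its level neighbours had a median of 0.21. Relative to these genes within each library, tbp in phf14 MO embryos was between 0.791 times (against ppiab) and 0.931 times (against tuba1a) its level in standard MO embryos. On the same basis gtf2a1 was between 0.415 and 0.488 times its level in standard MO embryos. With each of these 4 genes as a divisor, gtf2a1 was lower by more than 2-fold and tbp by between 1.07-fold and 1.26-fold. The log2 ratios of the 4 divisors, from -0.24 to -0.02, were small beside the -1.28 of gtf2a1. For gtf2a1 the outcome thus follows from values already given and adds no further support.

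Of 26 fixed marker genes of the blastula and its cell types 21 were listed, 0 of them at 0 in either library. Summed over the 7 enveloping layer markers, values were 1831 in the phf14 MO library and 2255 in the standard MO library, all 7 being lower, against 37.2% of all genes tested and 43 of the 50 genes at the level of gtf2a1. The 2 yolk syncytial layer markers summed to 144.9 in the phf14 MO library and 194.1 in the standard MO library, and the 5 zygotic lineage genes to 676.4 and 778.3 in the same order. Of these 5, 4 were lower, against 37.2% of all genes tested. tbxta was at -0.53 and sox3 at -0.43, vent (-0.04) and vox (-0.01) were nearly level, and gsc (0.17) was higher. tbxta and sox3 were among the 50 level neighbours of gtf2a1, whose median was -0.17. vent was among those of tbp, whose median was -0.12. The 4 oocyte-supplied transcripts summed to 42.04 in the phf14 MO library and 24.62 in the standard MO library, and the 3 germ plasm genes to 32.70 and 26.51 in the same order. All of these were higher in the phf14 MO library, as were 62.3% of all genes tested. btg4 (0.87), bmp15 (0.85), buc (0.71) and tdrd7a (0.46) were above the median gene (0.11), the SD across all genes tested being 0.35. mos (0.15), dnd1 (0.16) and nanos3 (0.16) were near the median gene. These markers were not set against level neighbours of their own, and some had low values. bmp15 had 4.92 in the phf14 MO library and 2.28 in the standard MO library. The part of these marker differences in the values of gtf2a1 and tbp was not tested. In whole embryos, fewer cells of a type and less RNA per cell cannot be told apart, and neither can stored and newly made transcripts of gtf2a1 and tbp. In the GRCz12tu annotation the gene zgc:153169 overlaps tbp, and no source used here says whether reads were counted by strand, so reads from the overlap cannot be told apart. No annotated gene overlaps gtf2a1 there. phf14 itself was not analysed here.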

How the data were processed

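For each library the authors deposited an expression signal per gene, named only as expression in the file headers, with at most 2 decimals and no negative value. The aligner, build, annotation, scaling and depth were not given in the sources used here. Libraries were made from whole embryo RNA with an Illumina TruSeq kit, per the labels' protocols. Samples were grouped by the injected morpholino, 1 library per group.

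The log2 ratio was log2(value + 1) in the phf14 MO minus that in the standard MO library, which understates changes of low genes. Genes with a mean of at least 1 entered the summaries. Level neighbours were the 50 such genes nearest in mean log2 value. gtf2a1, tbp, the gene lists and the alternatives were chosen with earlier results of these data known. Genes were named by rule: gtf2a1 and tbp, all measured TFIIA, TBP and general factor genes, at most 2 at each end of other lists, the neighbours nearest in level or log2 ratio, neighbours below either gene, and abundant genes past 2-fold lower. taf1b, gtf3c2 and gtf3ab complete a list of 5. Symbols of the listed machinery and reference genes were looked up in the gene name table by Ensembl identifier, and 24 of 26 were the same apart from case. The others, snapc1a and gtf3ab, carry there the symbols of the undivided genes. GRCz12tu was used only for gene order and overlap. Computations used Python 3.11.15, NumPy 2.4.6 and pandas 2.3.3 and were tested on simulated data.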

Additional observations from a re-analysis of the deposited data

How the results depend on the processing

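The log2 ratio of gtf2a1 was between -1.39 and -1.25, and that of tbp between -0.46 and -0.33, over pseudocounts of 0.1 and 5, after centring on the median gene, and with a trimmed mean of log2 ratios subtracted (trimming 30% by ratio and 5% by level at either end). With 25, 50 or 100 neighbours, with neighbours by the standard MO library alone, and with either pseudocount, 0 neighbours lay below gtf2a1, and 5 to 7.5 per 50 below tbp. Against 17 lower and 12 higher genes past 2-fold, 31 and 51 were counted with a pseudocount of 0.1, 3 and 2 with one of 5, 24 and 8 after centring or with the trimmed mean, and 7 and 5 where the mean had to reach 5. The median of the 5 TFIIA and TBP genes, 0.19, was 0.33 and 0.068 with pseudocounts of 0.1 and 5, 0.085 after centring and 0.086 with the trimmed mean, and it changed sign to -0.018 with a mean of at least 5, which leaves out tbpl2. The median of the RNA polymerase I and III factors was 0.11 with a pseudocount of 5, 0.074 after centring and 0.075 with the trimmed mean. For the 16 machinery genes the same settings were not planned and were added after seeing the data. They gave 0.15, 0.13 and 0.13. The reference gene median was -0.24 after centring and -0.23 with the trimmed mean. Centring and the trimmed mean subtract 0.11 from every log2 ratio by construction. No paired analysis was possible because there is 1 library per group, which also leaves no replicate to drop. The planned promoter motif comparison was not run.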

Other observations

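The following genes were chosen after seeing the data. RNA polymerase III, whose initiation factor TFIIIB contains TBP, had 4 listed subunit genes, of which 2 were higher in phf14 MO embryos and 2 lower. polr3gla had by far the highest deposited values of them, with 323.74 in the phf14 MO library and 383.60 in the standard MO library (log2 ratio -0.24). Among its 50 level neighbours 16 had a log2 ratio below that of polr3gla, and their median was -0.16. Its paralog polr3glb had 4.65 in the phf14 MO library and 5.32 in the standard MO library (-0.16). polr3d had 3.09 in the phf14 MO library and 2.05 in the standard MO library (0.42), and polr3e had 24.27 and 19.49 in the same order (0.30). After centring on the median gene the signs of these 4 were kept.

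Among the 3 nearest protein-coding genes on either side of gtf2a1 in the GRCz12tu annotation, tmem30ab, a gene of a flippase subunit family, was listed. It had 9.33 in the phf14 MO library and 6.24 in the standard MO library (log2 ratio 0.51). That direction is opposite to gtf2a1, but 62.3% of all genes tested were also higher in phf14 MO embryos. Around tbp the listed one was cep68, a centrosomal gene, which was matched by its synonym zgc:152968. It had 2.61 in the phf14 MO library and 2.40 in the standard MO library (0.09, and below 0 after centring on the median gene).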
